A study of Caenorhabditis elegans with 3 samples.

Results

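The CDC-48 segregase and its UFD-1 and NPL-4 cofactors were examined as 5 of 19973 nuclear protein-coding genes of Caenorhabditis elegans: cdc-48.1, cdc-48.2, ufd-1, npl-4.1 and npl-4.2. The genes were chosen by name and on earlier results of these data, among them the signal of the cdc-48.1 site in the optimal list, its rank in each replicate and the difference between the paralogues, so these values are given as a description. A region was given to a gene when its summit, the position of its peak, lay between 2000 bp upstream of the first transcript start and the end of the gene. The data are chromatin immunoprecipitation and sequencing of NHR-25, a nuclear hormone receptor of the FTZ-F1/SF-1 family with known roles in the epidermis and in molting, from whole larvae of the L2 stage and mixed sex, age unknown. All larvae were of strain OP33, genotype unc-119(ed3) III; wgIs33, a line that stably expresses NHR-25 with GFP-FLAG at its C-terminus, and all 3 biological replicates form 1 group. Replicates 1 and 2 carry a size range label of 150-350 and the source CGC, and replicate 3 carries a sonication label and the source Michael Snyder. Since the animals were whole, no region can be assigned to a cell type.

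CDC-48, called p97 or VCP in mammals, is a ring-shaped AAA ATPase that unfolds ubiquitin-tagged proteins and pulls them out of membranes, complexes and chromatin. UFD-1 and NPL-4 form the cofactor that binds the ubiquitin chain and hands the substrate to the ring. In the worm, the complex is known for degradation of misfolded proteins of the endoplasmic reticulum and for DNA replication in the embryo, where it takes the helicase off chromatin.

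Both CDC-48 genes among the members had a region in the optimal list, the 4548 regions that passed the authors' reproducibility threshold. Their sequences on ce11 (WBcel235), taken from the RefSeq genome, are shown because the strong site and the weak site of the same enzyme can be compared letter by letter. Each runs 5′ to 3′ on the strand of its gene, with the 101 bases centred on the summit in capitals. The cdc-48.1 sequence is II:10563415-10563714, minus strand, and the cdc-48.2 sequence is II:8137460-8137759, plus strand.

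cdc-48.1: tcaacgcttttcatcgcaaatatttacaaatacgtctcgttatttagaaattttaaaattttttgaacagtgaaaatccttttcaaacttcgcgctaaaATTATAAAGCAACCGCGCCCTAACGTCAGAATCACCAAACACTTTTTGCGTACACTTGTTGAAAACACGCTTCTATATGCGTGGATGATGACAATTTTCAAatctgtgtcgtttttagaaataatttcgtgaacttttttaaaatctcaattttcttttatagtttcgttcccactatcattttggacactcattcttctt

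cdc-48.2: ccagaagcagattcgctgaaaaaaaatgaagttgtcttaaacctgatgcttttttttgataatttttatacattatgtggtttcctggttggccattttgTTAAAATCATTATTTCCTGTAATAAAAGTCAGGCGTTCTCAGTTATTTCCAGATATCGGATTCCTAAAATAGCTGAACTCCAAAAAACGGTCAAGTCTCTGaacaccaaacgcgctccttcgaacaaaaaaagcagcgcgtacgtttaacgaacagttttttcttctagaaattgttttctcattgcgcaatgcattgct

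The cdc-48.1 sequence held 32% G and C over its 300 bases and the cdc-48.2 sequence 36%. No annotated exon overlapped either one.

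NHR-25 signal was high directly upstream of cdc-48.1 and close to the threshold upstream of cdc-48.2. cdc-48.1 (WBGene00007352, II:10560036-10563407, minus strand) had 1 optimal region, II:10563395-10563763, which is 369 bp wide. Its summit, at position 10563565, lay in intergenic sequence 158 bp upstream of the first transcript start. Its signal, a value the authors' peak caller gave the region, was 2642, and it ranked 14 of 4548, or 2 among the 4524 nuclear regions once 24 mitochondrial regions were set aside. By comparison, the median optimal region had a signal of 182.6.

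The cdc-48.1 site was found at the top of every replicate's own list of 30000 regions. Its signal ranked 16 in replicate 1, 2 in replicate 2 and 17 in replicate 3, a mean rank of 11.7 ± 8.39 (SD, n = 3). Mitochondrial regions took 14 places above it in replicate 1, 0 in replicate 2 and 15 in replicate 3, and among nuclear regions it ranked 2 in each replicate. The replicate signals were 523 in replicate 1, 408 in replicate 2 and 405 in replicate 3, which were 13.5, 13.7 and 11.9 times the median nuclear signal among the strongest 4548 regions of the same list. The summits stood 172 bp upstream of the start in replicate 1, 159 bp in replicate 2 and 154 bp in replicate 3. The only nuclear region above it was that of rpl-3, whose signal was 1.08 times that of cdc-48.1 in replicate 1, 1.09 times in replicate 2 and 1.04 times in replicate 3. The site also fell in the window of C06A1.7, but cdc-48.1 was the only gene with a protein-coding start within 1000 bp of the summit.

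cdc-48.1 held little else. Each replicate's list had 1 further region with its summit in the gene, at rank 13773 in replicate 1, 29056 in replicate 2 and 21596 in replicate 3. These lay 2773, 1339 and 3367 bp downstream of the start in that order, at a different place in each replicate.

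cdc-48.2 (WBGene00008053, II:8138496-8141230, plus strand) also had 1 optimal region, II:8137415-8137804, which is 390 bp wide. Its summit, at position 8137610, lay in intergenic sequence 886 bp upstream of the first transcript start. The signal was 115 and the rank 4182 of 4548, while the lowest signal in the list was 106.6. The start of ctns-1, the cystinosin gene, stood nearer to this summit, at 692 bp, and the region fell in both genes' windows. Assignment to cdc-48.2 therefore rests on the width of the window.

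The replicates placed the cdc-48.2 site well below that of cdc-48.1. It ranked 7016 in replicate 1, 4188 in replicate 2 and 9543 in replicate 3, a mean of 6916 ± 2679 (SD, n = 3), with signals of 18.1, 19.8 and 13.7 in the same order. Only replicate 2 had it among its strongest 4548 regions, which is the measure of support used here. The replicate summits were 165, 7 and 33 bp from the optimal summit, a wider scatter than at cdc-48.1. The pooled list had a separate region 688 bp upstream of the start, at rank 25266. The replicate 1 summit, 721 bp upstream, stood nearer to that region, so the replicate 1 values in the means may not be of the same site. In replicates 1 and 3 another region was stronger, with summits 1532 and 1503 bp upstream of the start and ranks of 5705 and 4666. Replicate 2 had no region there, and the pooled list had one 1517 bp upstream at rank 7675.

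**Figure D1:**
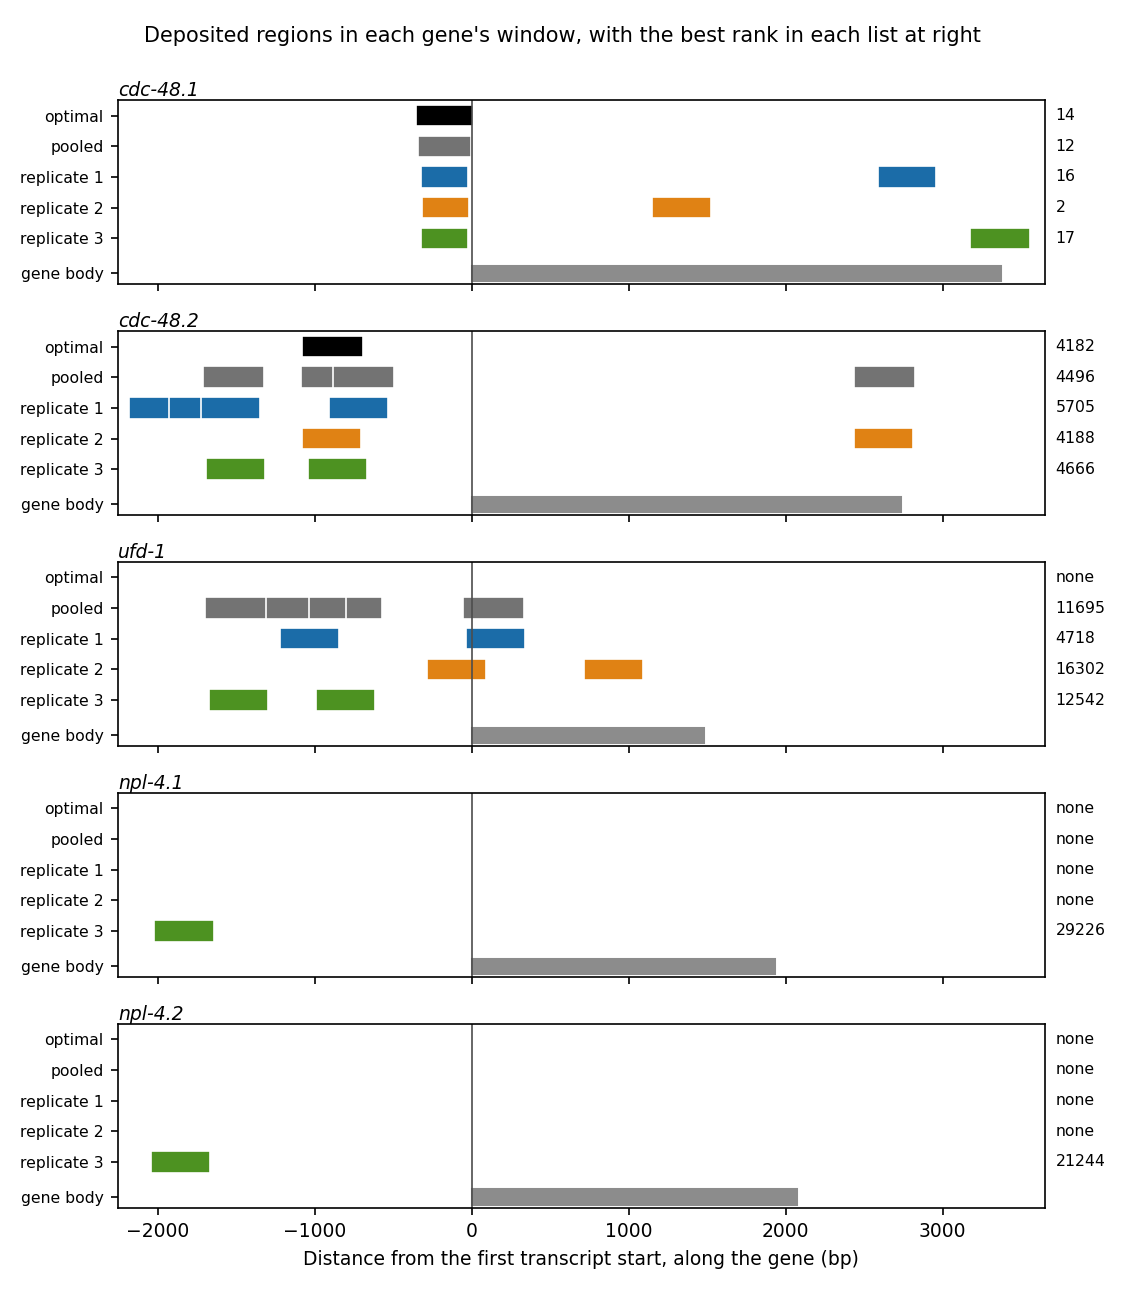
Regions of each deposited list with a summit in the window of each gene, drawn to scale against the distance in bp from the first transcript start (vertical line), with the gene body in grey and the best rank in each list at the right. At cdc-48.1 all 5 lists place their strongest region directly upstream of the start, at ranks 2 to 17, whereas npl-4.1 and npl-4.2 have a region in replicate 3 alone.

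In every list the cdc-48.1 site had the higher signal of the 2. In the optimal list the cdc-48.1 signal was 23.03 times that of cdc-48.2, and in the list called on the pooled replicates it was 24.4 times. Within the replicates' own lists the ratio was 28.9 in replicate 1, 20.6 in replicate 2 and 29.5 in replicate 3, with a mean of 26.3 ± 4.96 (SD, n = 3). These ratios use the region matched to the optimal cdc-48.2 site, which in replicate 1 had its summit 165 bp from the optimal one. The cdc-48.2 window held a stronger region in replicates 1 and 3, with signals of 20.8 and 21.7. Against those regions the ratios and the rank differences in replicates 1 and 3 would be smaller. The cdc-48.2 site ranked 6904 ± 2671 places lower (SD, n = 3), and the ranks of the 2 sites did not overlap. The pair was chosen with this difference known, so it was not tested.

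As their names as paralogues imply, the proteins of each pair are much alike. Translation of the annotated coding sequences gave 809 residues for CDC-48.1 and 810 for CDC-48.2, identical at 720 of 817 aligned positions (88.1%). NPL-4.1 and NPL-4.2 had 529 residues each, identical at 524 of 529 (99.1%).

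Gene pairs whose names differ only in a final 1 or 2 after the point, as the cdc-48 pair does, gave the background for the contrast. Of 97 such pairs, cdc-48 included, 11 had an optimal site at both genes, 35 at 1 gene and 51 at neither, the npl-4 pair among them. Over the 11 pairs the higher signal was a median of 1.94 times the lower one. The cdc-48 pair had the ratio of 23.03, followed by rpl-41 with 4.19, where rpl-41.2 was the higher, and txdc-12 with 2.65, where txdc-12.1 was. These ratios leave out the 35 pairs with a site at 1 gene, where the other gene has no signal in the list and no ratio can be formed. Among those, cyc-2.1 had a signal of 2271, serp-1.1 one of 1041 and rpl-11.2 one of 1008, against no site at cyc-2.2, serp-1.2 and rpl-11.1. A strong site at 1 gene of a pair was therefore not particular to cdc-48, and cdc-48.2 itself, at 115, was only just above the lowest signal of 106.6. The adjacent genes rbm-3.1 and rbm-3.2 had a ratio of 1 because both windows held the same site.

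**Figure D2:**
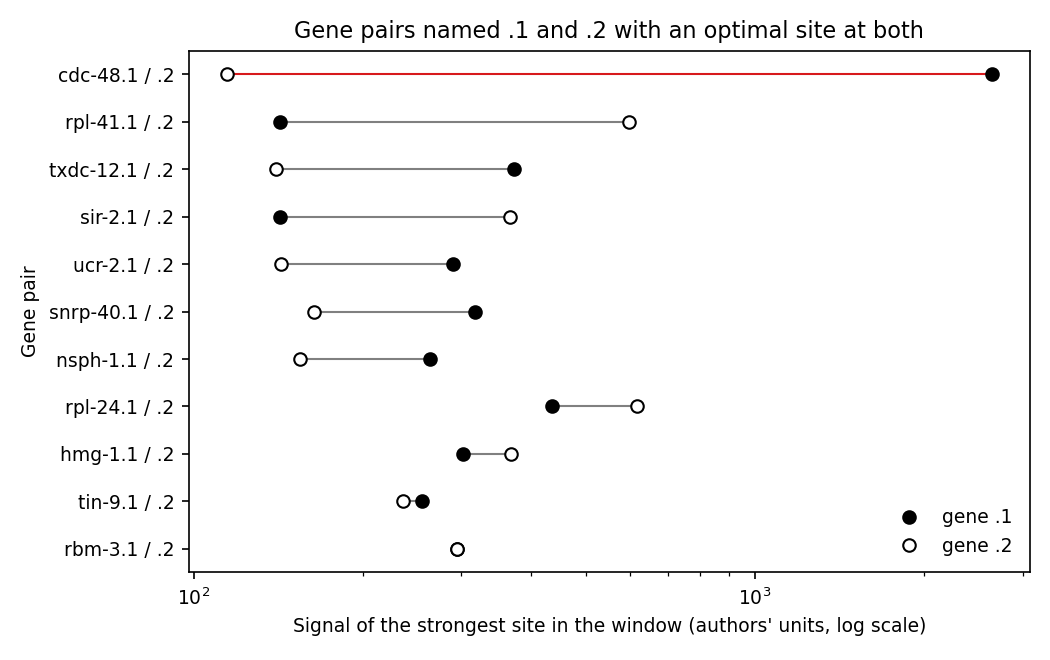
Signal of the strongest optimal site in each gene's window (authors' units, log scale) for the 11 pairs with a site at both genes, with the first gene of a pair as filled points and the second as open points. The cdc-48 pair, drawn with a red line, spans 2642 to 115, and the other pairs lie between 140 and 616.

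The cofactor genes had no optimal region. ufd-1 (WBGene00006733, IV:12329408-12330890, minus strand) had its strongest region in replicate 1, at rank 4718 with a signal of 23.7 and a summit 151 bp downstream of the start. In replicate 2 its best rank was 16302, 905 bp downstream of the start, and in replicate 3 it was 12542, 803 bp upstream. The pooled list had its strongest ufd-1 region 138 bp downstream of the start, at rank 11695. The strongest region thus lay at a different place in each replicate. Its rank of 4718 in replicate 1 was stronger than the median best rank of 7280 over all genes with a region. In replicates 2 and 3 its ranks, 16302 and 12542, were weaker than the medians of 8185 and 7362. Weaker regions did overlap the strongest ones: replicate 2 had one 99 bp upstream of the start, at rank 21718, that overlapped the strongest of replicate 1, and replicate 1 had one 1031 bp upstream, at rank 12280, that overlapped the strongest of replicate 3.

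npl-4.1 (WBGene00019120, II:5631351-5633284, plus strand) had no region in the pooled list or in replicates 1 and 2, and replicate 3 had 1 at rank 29226, with its summit 1832 bp upstream of the start. npl-4.2 (WBGene00019121, II:5622889-5624959, plus strand) had no region in those lists either, and replicate 3 had 1 at rank 21244, 1854 bp upstream. The npl-4 genes were the members with the fewest regions.

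The npl-4 windows consist largely of sequence that occurs elsewhere in the genome. Of all stretches of 36 bases in the window, 75.1% at npl-4.1 and 74.4% at npl-4.2 were found again at another place, and for stretches of 50 bases the shares were 73.3% and 72.0%. The share for 36 bases was 0% at cdc-48.2, 0.058% at ufd-1 and 9.12% at cdc-48.1. Neither optimal region held such a stretch. The read length is not given in the sources used here, and the part that repeated sequence plays in the missing npl-4 regions was not tested.

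**Figure D3:**
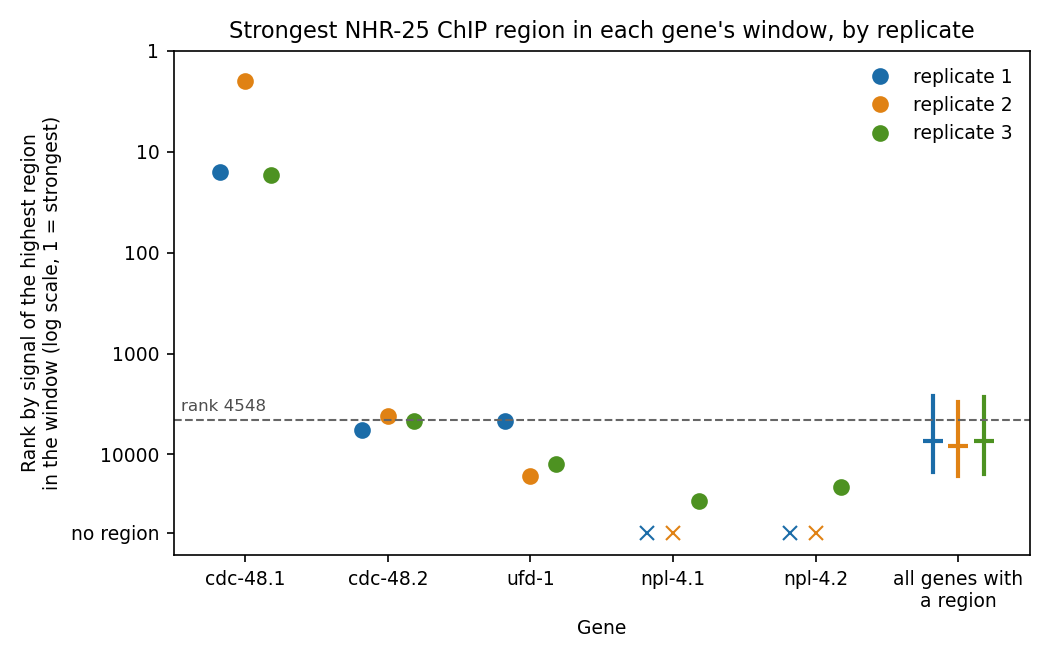
Rank by signal of the strongest region in each gene's window in each replicate's list (log scale, 1 at the top), with crosses where a replicate had no region and, at the right, the median and interquartile range over all genes with a region. cdc-48.1 ranks between 2 and 17, cdc-48.2 between 4188 and 5705 and ufd-1 between 4718 and 16302, against medians of 7280 to 8185 over all genes with a region.

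Among all genes in the background, 19.0% of 19971 had an optimal summit in the same window (nhr-25 and unc-119, which the transgenic strain carries in altered form, were set aside), beside 2 of the 5 members. An optimal site supported by all 3 replicates was found for 12.0% of genes, beside 1 member, cdc-48.1. Summits of the strongest 4548 regions lay in the windows of 19.3% of genes in replicate 1, 19.5% in replicate 2 and 19.3% in replicate 3, beside 1, 2 and 1 of the members. The member counted in each replicate was cdc-48.1, with cdc-48.2 added in replicate 2. At the cut itself, the cdc-48.2 site lay just inside in replicate 2 at rank 4188. Just outside lay ufd-1 in replicate 1, at rank 4718, and a different region of the cdc-48.2 window in replicate 3, at rank 4666. The latter was 1503 bp upstream of the start, and the cdc-48.2 site itself ranked 9543 in replicate 3. Any of the 30000 regions fell in the windows of 51.5% of genes in replicate 1, 57.5% in replicate 2 and 52.6% in replicate 3.

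The wider CDC-48 and ubiquitin pathway was followed in a list of 27 genes. This list was chosen with earlier results of these data known, so its shares are a description and were not tested. Of the 27 genes, 12 had an optimal site (44.4%, beside 19.0% of all genes). An optimal site supported by all 3 replicates was present at 10 (37.0%, beside 12.0%). The strongest 4548 regions of replicates 1, 2 and 3 placed a summit in 14, 12 and 14 of the 27 windows, beside 19.3, 19.5 and 19.3% of all genes. For the groups of the list described below, the shares of all genes are again 19.0% with a site and 12.0% with one in all 3 replicates. The signals of the 12 genes ran from 515 down to 110. All were lower than that of cdc-48.1, as was every nuclear optimal region but that of rpl-3. For 9 of them the gene's own start was the nearest one to its strongest site.

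Of 11 genes listed as UBX-domain and other cofactors, 5 had a site, 3 of them in all 3 replicates. The 11 include cdc-48.3, whose name is that of the ATPase and not of a cofactor. The strongest was that of ubxn-3, a FAF1-type adaptor of CDC-48 in replisome disassembly, with a signal of 515 and a rank of 365, 736 bp upstream of the start. The replicates ranked this site 453, 489 and 280. ufd-3, which encodes a ubiquitin-binding WD-repeat cofactor, had a signal of 351 at rank 798, 124 bp upstream of the start. ubxn-2, a p47-type adaptor gene, had a signal of 283 at rank 1182, 179 bp upstream. The other two were each supported by 1 replicate. The deubiquitinase gene atx-3, the ataxin-3 homologue, had a signal of 150 and ranked 9847, 5337 and 1984 in replicates 1, 2 and 3, and was supported by replicate 3 alone. ubxn-6 had a signal of 110, below that of cdc-48.2, was supported by replicate 1 alone and shared its site with eif-1.A, whose start was nearer. ubxn-1, ubxn-4, ubxn-5, ufd-2, png-1 and cdc-48.3 had no site.

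Of 8 genes for degradation at the endoplasmic reticulum, 3 had a site, each in all 3 replicates. The ubiquitin-conjugating enzyme gene ubc-7 had a signal of 435 at rank 532, 309 bp upstream of its start. ubc-6, which encodes a membrane-anchored enzyme of the same kind, had 2 regions that overlap each other, with signals of 369 and 253 and summits 310 and 111 bp upstream. In replicate 3 both matched the same region, at rank 867. The derlin gene cup-2 had a signal of 282 at rank 1197, though the start of tag-353 was nearer. The ubiquitin ligase genes sel-11, hrdl-1 and marc-6, as well as sel-1 and the second derlin gene der-2, had no site.

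Of 6 genes for ubiquitin and its shuttling, 4 had a site in all 3 replicates. ubql-1, the ubiquilin gene, had a signal of 398 at rank 653. ubq-2, which encodes ubiquitin fused to a ribosomal protein, had a signal of 367 at rank 751, with the start of frg-1 nearer. The polyubiquitin gene ubq-1 had a signal of 272 at rank 1271, within its own intron, and uba-1, the gene for the ubiquitin-activating enzyme, had a signal of 247 at rank 1483. rad-23 and chn-1 had no site. cul-2 and lrr-1, the ligase genes for replisome unloading, had none either.

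**Figure D4:**
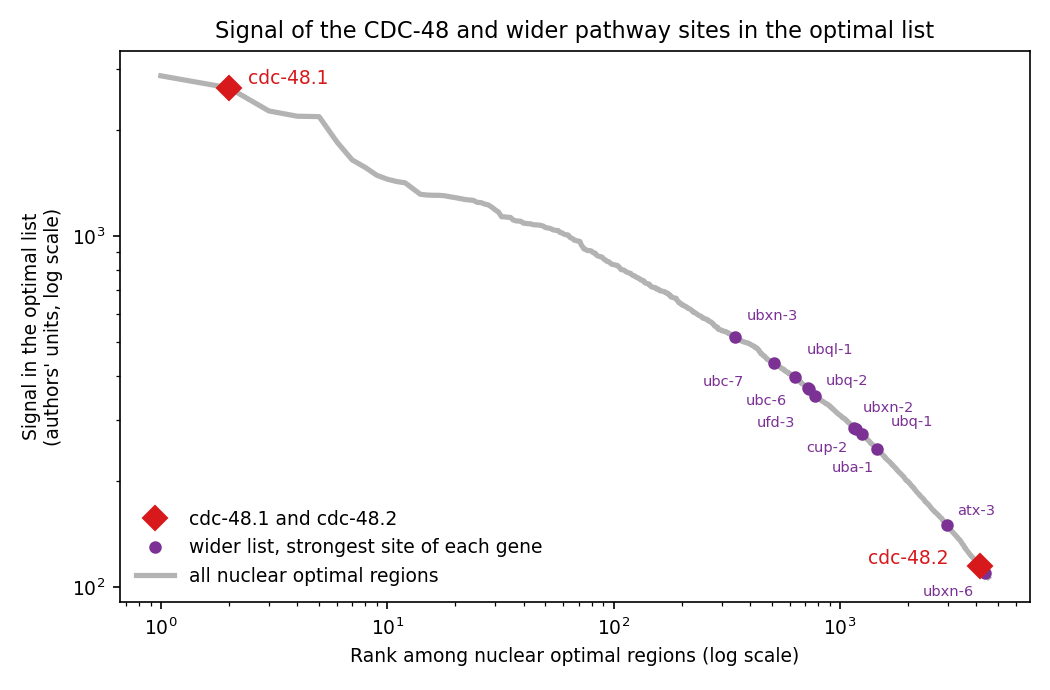
Signal in the optimal list (authors' units, log scale) against rank among nuclear optimal regions (log scale), with all regions as a grey line, the strongest site of each of 12 wider pathway genes as purple points and the member sites as red diamonds. cdc-48.1 stands at rank 2, the wider pathway sites lie between signals of 515 and 110, and cdc-48.2 sits at the lower end with 115.

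The genes whose replicate ranks were most like those of cdc-48.1, by the sum over 3 replicates of absolute rank differences among 3695 genes with a site, were rpl-3, which encodes a large-subunit ribosomal protein, with a sum of 3, and Y17G9B.5 and the cytochrome c gene cyc-2.1, with a sum of 9 each. The last 2 share 1 site, at ranks 20, 5 and 19 in replicates 1, 2 and 3. For cdc-48.2, among 3696 genes, the nearest were F47G3.4 with a sum of 1319, the Wnt gene lin-44 with 1672 and the phosphoglycerate mutase gene ipgm-1 with 1858.

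The distance of the cdc-48.1 summit from its start was ordinary, while that of cdc-48.2 was close to the upper quartile of all genes with a site. Over all 3789 genes with an optimal site, the summit of the strongest one lay a median of 253 bp upstream, with quartiles of 42 and 884 bp, and the median of the best signals was 217. cdc-48.1, at 158 bp, lay within these quartiles and cdc-48.2, at 886 bp, just past the upper one. With 1 site each, both were like 2954 of the 3789 genes.

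Neither member summit had any of 7 motifs searched on both strands within 50 bp. The motifs were the extended FTZ-F1 half-site of the NHR-25 family (TCAAGGTCA, TCAAGGTCG, TCAAGGCCA, TCAAGGCCG, CCAAGGTCA, CCAAGGTCG, CCAAGGCCA or CCAAGGCCG), the half-site AGGTCA, which lies inside some forms of the extended and RORE-type sites, the repeat GAGAGA, the E-box CACGTG, the GATA site (AGATAA, its variant AGATAG, its variant TGATAA or its variant TGATAG), the Grainyhead site AACCGGTT and the RORE-type site. Over all 4524 nuclear optimal summits, 50.1% had at least 1 of them, against 28.6% of positions 500 bp toward higher coordinates. GAGAGA was at 24.6% of summits against 5.90% of these flanks, the GATA site at 24.3% against 20.2%, AGGTCA at 6.56% against 2.92%, CACGTG at 5.88% against 1.83%, the extended half-site at 1.41% against 0.309%, AACCGGTT at 1.08% against 0.177% and the RORE-type site at 0.177% against 0.243%. In the 300 bases printed for each member, a GATA site lay 126.5 bp downstream of the cdc-48.1 summit, as CTATCA on the strand shown, and another, TGATAA, 91.5 bp upstream of the cdc-48.2 summit.

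Of the 13 regions of the wider list, the overlapping ubc-6 regions counted apart, 5 had at least 1 of the motifs within 50 bp of the summit, beside 50.1% of all nuclear optimal summits. The other regions of the list had none, so the lack of a motif was not particular to the members. The ubxn-3 site, the strongest of that list, is shown as an example with motifs. Its GAGA repeat, its E-box and a GATA site that overlaps the E-box have their centres 6.5, 9.5 and 13.5 bp from the ubxn-3 summit. Its 101 bases, II:221353-221453 on the minus strand of ce11 from the RefSeq genome, follow with the matches in capitals.

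ubxn-3: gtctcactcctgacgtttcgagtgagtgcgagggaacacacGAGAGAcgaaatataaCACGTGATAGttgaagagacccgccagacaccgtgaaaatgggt

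The G and C content in the 101 bases around the summit was 39.6% at cdc-48.1 and 34.7% at cdc-48.2, beside 50.5% at ubxn-3. Over all nuclear optimal summits the median was 42.6%, with quartiles of 36.6 and 48.5%, and over the flanks it was 34.7%. cdc-48.1 thus lay within the quartiles of the optimal summits, and cdc-48.2 below them and at the median of the flanks.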

How the data were processed

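NHR-25 was profiled by chromatin immunoprecipitation in 3 biological replicates of 1 group gave lists of regions on ce11 and ce10. Per the notes that accompany the deposited files, the authors called regions in each replicate and in the pool of all 3 against a control, 30000 to a list and with background included. The optimal list keeps those past their irreproducible discovery rate threshold. Aligner, caller and read length were not given in the sources used here, and without read counts the depth is unknown. The signal is the value the authors deposited for each region, in units that are not stated, and optimal signals were a median of 2.02 times those of the same regions in the pooled list. Signals were therefore compared within a list and lists by rank.

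Summits were assigned to genes of Ensembl release 115, and coordinates are 1-based on ce11. In a replicate, the region that overlapped the optimal one and had the nearest summit gave the rank. Support required an overlap of at least 1 bp with one of the replicate's 4548 strongest regions. Proteins were translated from the annotation on the RefSeq genome and aligned with BLOSUM62, gap penalties 11 and 1, in Biopython 1.88 (Python 3.11.15, pandas 2.3.3, numpy 2.4.6, matplotlib 3.10.9). ce10 regions were matched by chromosome, width and signal within 0.01%, without converting coordinates. Alternatives were windows of 1000 and 5000 bp, any overlap, coding starts, merged regions, the 2274 strongest regions, stricter overlaps, 0.5 and 2 times the regions per replicate, nuclear ranks, motif windows of 25 and 100 bp and leaving out each replicate, and, chosen after the data were seen, the nearest start and the ce10 list. Named genes were the members, wider-list genes with a site, genes with a start within 1000 bp of a member site and the 3 of most similar ranks. The other pairs of paralogues and the repeated stretches were examined after the values were seen. The members, the wider list and the motifs were chosen with earlier results of these data known. No test was run, since the rule used the values compared. Assignment and matching were checked on simulated regions.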

Additional observations from a re-analysis of the deposited data

How the results depend on the processing

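Of 56 values recomputed under alternatives, 44 stayed within the limits set for a change and 12 moved. The limit was a fixed factor for counts and shares, and the SD over the replicates for mean ranks and the signal ratio. A change of direction was not looked for. The count of member sites, 2 at 2 members, was 4 at 3 members with windows of 5000 bp, which added a site 4476 bp upstream of ufd-1 inside F19B6.1 (signal 142) and one 3404 bp upstream of cdc-48.2 inside ctns-1 (signal 120), while the share of all genes with a site moved to 26.1%, beside 19.0% in the 2000 bp window. The count was 1 at 1 member, cdc-48.1, with the 2274 strongest optimal regions, where 11.5% of all genes had a site, with each site given to the nearest start, and in the ce10 optimal list of 3347 regions. In that list the cdc-48.1 site ranked 12 and the cdc-48.2 site had no match. Unlike on ce11, the ce10 optimal list gave the cdc-48.1 site its pooled signal, 1323. The pooled cdc-48.2 signal of 54.1 lay under the lowest signal there, 68.9. The mean rank of the cdc-48.1 site was 2 over nuclear regions, since mitochondrial regions were left out. The ratio of the cdc-48.1 to the cdc-48.2 signal, for the regions matched to the optimal sites, was 28.9 in replicate 1 and 29.5 in replicate 3. Without each replicate in turn, the mean rank of the cdc-48.1 site was 9 to 16.5, that of the cdc-48.2 site 5602 to 8280 and their difference 5593 to 8263, while the count of sites in all replicates left was 1 throughout. These means could not pass their limit, since leaving out 1 of 3 values shifts a mean by less than the SD. They are counted among the 44 and say nothing about stability. The optimal list was the same in each case, since it rests on all 3 replicates. A GATA site 91.5 bp from the cdc-48.2 summit was the only motif match gained at 100 bp. No paired analysis was possible because there is 1 group.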
